A study of Homo sapiens with 6 samples.

Results

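DNAJ proteins, also called J-domain proteins or HSP40s, are co-chaperones that bring unfolded clients to HSP70 chaperones and stimulate HSP70 to hydrolyse ATP through their conserved J domain. Class A members share the zinc-finger region of bacterial DnaJ, class B members lack it but keep a glycine- and phenylalanine-rich stretch, and class C members share only the J domain and serve single tasks such as clathrin uncoating, mitochondrial import or splicing. Because each HSP70 works with many J-domain partners, the set of DNAJ genes that a cell expresses helps determine which clients its HSP70s handle.

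The members were the protein-coding rows of the deposited gene table whose symbol is DNAJA, DNAJB or DNAJC followed by a number. These were 45 of 58302 rows, or of 19817 protein-coding rows, with 4 genes in class A, 12 in class B and 29 in class C. The rule uses symbols and gene types and no measured value. DNAJB3 is typed as a pseudogene in the table and was therefore not counted. One class C row, DNAJC25-GNG10, is a readthrough of DNAJC25 into the neighbouring gene GNG10, which encodes a G-protein gamma subunit.

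Hs766T, an established line of human pancreatic ductal adenocarcinoma cells (spelled HS7666T in the sample titles), was profiled by RNA-seq in 6 libraries. In 3 libraries the cells overexpressed DDX18 (genotype ex-DDX18), an RNA helicase of the nucleolus that acts in making ribosomes, and 3 libraries came from control cells that the labels name plvx and give the genotype WT. The series asked how high DDX18 affects other molecules of these cells. The sources used here do not give the promoter that drives DDX18, the number of clones behind each group or any treatment. The series speaks of repeated sequencing in each group and nothing says that the cultures were separate, so p-values reflect no more than the spread among these 6 samples, and that spread may be technical.

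Total counts were 15911875 to 16207995 per library, and 22132 to 23286 genes had a count. Levels are given as CPM, the standard depth-scaled read count, with library sizes adjusted by TMM factors. The 2 groups were compared over 15144 genes with the quasi-likelihood F-test of edgeR, with Benjamini-Hochberg adjustment over all of them and 0.05 as the threshold. DDX18 itself had 187.2, 197.4 and 176.9 CPM in the DDX18 libraries and 89.4, 82.4 and 98.3 CPM in the controls, a log2 fold change of 1.06 (SE 0.0862; edgeR adjusted p = 0.00982). When DDX18 replicate 2 was left out its adjusted p was 0.0544, and when control replicate 2 was left out it was 0.0643. The epithelial keratin genes KRT7, KRT8 and KRT18 were expressed at 511.6 to 2386.5 CPM in every library. KRT18 averaged 855.8 ± 53.1 CPM in the DDX18 libraries and 1045.9 ± 206.6 CPM in the controls, without overlap and not past the threshold. Other ductal or epithelial genes were lower. MUC1 had 46.7 to 60.5 CPM, SOX9 8.78 to 14.7, EPCAM 4.40 to 7.93 and CDH1 1.74 to 2.50, and KRT19, another ductal keratin, had counts in 1 library only. Summed over their lists, acinar and endocrine markers reached at most 0.125 CPM, immune markers 4.90 to 7.49 CPM and endothelial markers 4.25 to 7.43 CPM, with INS, PRSS1, CD3E, PECAM1 and KDR at 0 in every library. The highest members of the immune and endothelial lists were CD68 (2.96 to 5.30 CPM) and VWF (4.13 to 7.25 CPM). Fibroblast markers summed to 162.5 to 173.9 CPM, with COL1A2 at 0. Of these, COL1A1 averaged 55.1 ± 3.17 CPM in the DDX18 libraries and 66.8 ± 4.39 CPM in the controls, PDGFRB 105.0 ± 2.27 and 91.6 ± 4.15 CPM, both without overlap and neither past the threshold, and DCN had 9.03 to 13.3 CPM. These are bulk samples, so fewer cells of a type and less RNA per cell cannot be told apart.

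No DNAJ gene passed the test between DDX18-overexpressing and control cells. Of the 45 genes, 40 passed the filter on low counts and were tested (4 of class A, 10 of class B and 26 of class C). None of the 40 passed the edgeR threshold, against a background of 8 of 15144 genes (0.0528%, with 0.0264% called higher and 0.0264% called lower; 3 to 14 genes when single libraries were left out), and the smallest adjusted p among them was 0.800. DESeq2, the other count test, gave an adjusted p for 39 of them and also called 0. At an unadjusted p under 0.05 there were 6 of the 40 (15%), with 3 higher (DNAJA4, DNAJC1 and DNAJC22) and 3 lower (DNAJB1, DNAJC2 and DNAJC25-GNG10) in the DDX18 libraries, where the background was 5.69%. The point estimates were above 0 for 20 genes and below 0 for 20, and their median log2 fold change was -0.01 over the DNAJ genes and -0.00 over all genes tested.

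The fold changes of most members were bounded closely. For 32 of the 40 (80.0%) the 95% interval of the fold change lay within 1.5-fold in either direction, as it did for 61.3% of all genes tested. The DNAJ genes were also somewhat more abundant than the average gene, with a median level of 24.6 CPM against 18.7 CPM. The 8 genes with wider intervals were DNAJA3, DNAJB6, DNAJB13, DNAJB14, DNAJC1, DNAJC14, DNAJC27 and DNAJC25-GNG10. In 8 of the 40 (20%) the 3 DDX18 libraries lay wholly above or wholly below the 3 controls, as in 11.5% of all genes tested, with 4 genes higher (background 5.83%) and 4 lower (background 5.71%) in the DDX18 libraries. Without control replicate 1, where 2 controls must separate in place of 3, the count was 13 of 41 genes tested (31.7%), against 25.3% of all genes. Those 8 genes are described with their role groups.

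**Figure D1:**
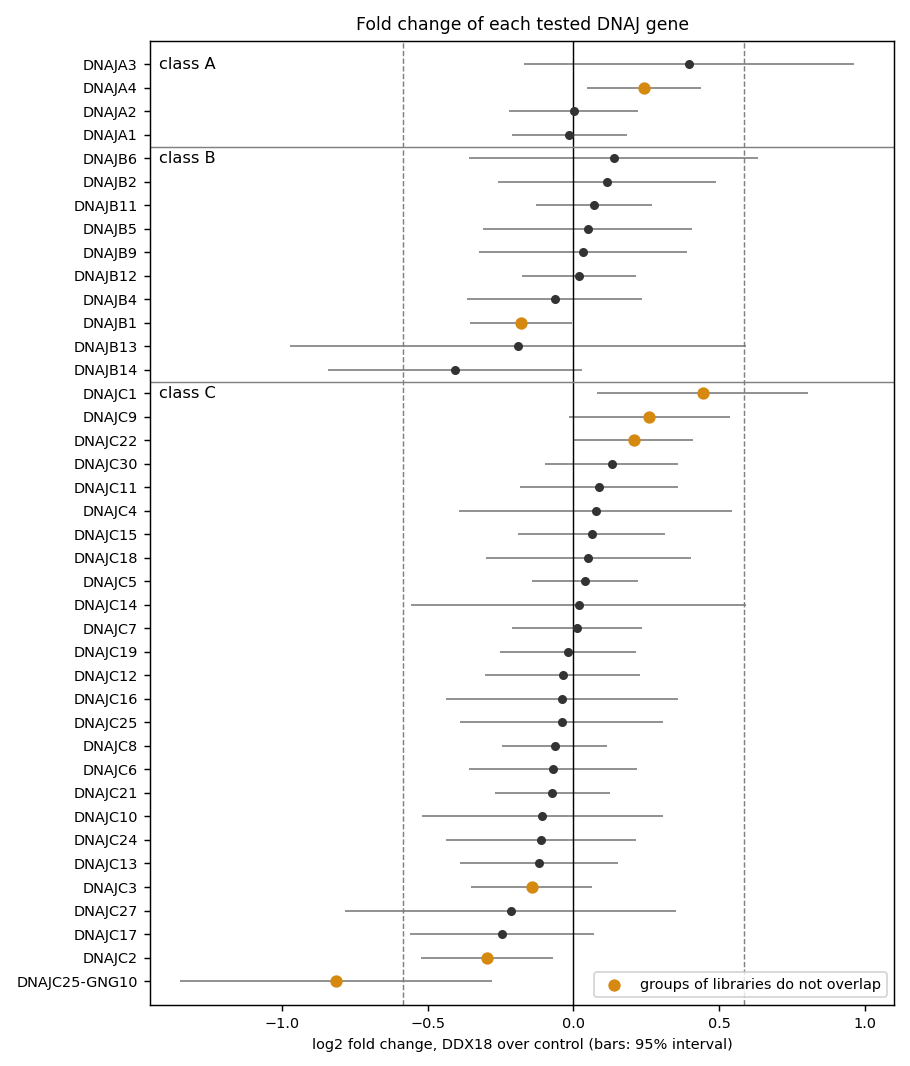
The log2 fold change of each of the 40 tested DNAJ genes, DDX18 over control, is drawn as a point with its 95% interval, sorted within classes A, B and C. Dashed lines mark 1.5-fold in either direction, orange points mark the 8 genes whose groups of libraries did not overlap, and the estimates range from -0.81 (DNAJC25-GNG10) to 0.44 (DNAJC1).

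Summed in CPM, the levels of all 3 classes overlapped between the groups. Class A genes summed to 341.3, 377.1 and 363.4 CPM in the DDX18 libraries and to 369.0, 290.3 and 310.1 CPM in the controls (360.6 ± 18.1 against 323.1 ± 40.9, mean ± SD, n = 3 each). The groups overlapped, since control replicate 1 exceeded 2 of the DDX18 libraries, and the log2 ratio of 0.16 compares with a pooled SD of 0.14 between replicates. Without DNAJA3 the class A sums were 221.8 ± 11.1 and 217.6 ± 15.7 CPM, a log2 ratio of 0.03 (a setting chosen after the values were seen).

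Class B genes summed to 366.9, 366.2 and 346.0 CPM in the DDX18 libraries and to 361.0, 361.3 and 376.1 CPM in the controls, a log2 ratio of -0.03. Class C genes summed to 1082, 1214 and 1210 CPM in the DDX18 libraries and to 1170, 1158 and 1155 CPM in the controls, a log2 ratio of 0.01. Both ratios were smaller than the pooled SD between replicates (0.04 and 0.07 on the log2 scale). Per kilobase of merged exons, a scale that gives short transcripts more weight, class B summed to 67.4, 70.0 and 69.5 CPM per kb in the DDX18 libraries and to 72.4, 71.6 and 72.7 CPM per kb in the controls. On that scale the class B groups did not overlap, and the log2 ratio of -0.07 compares with a pooled SD of 0.02 (-0.05 and 0.02 with the length that the deposited FPKM values imply), while classes A and C overlapped on both length scales. DNAJB1, the most abundant class B gene per kilobase (34.3 CPM per kb), also had every DDX18 library below every control. DNAJB1 alone ran from 29.8 to 36.8 CPM per kb over the 6 libraries, and the class B sums ran from 67.4 to 72.7. The class B sum without DNAJB1 was not computed, so the difference is not shown to be one of the class as a whole. The median log2 fold change of single genes was 0.12 in class A (3 of 4 above 0), 0.03 in class B (6 of 10) and -0.04 in class C (11 of 26).

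**Figure D2:**
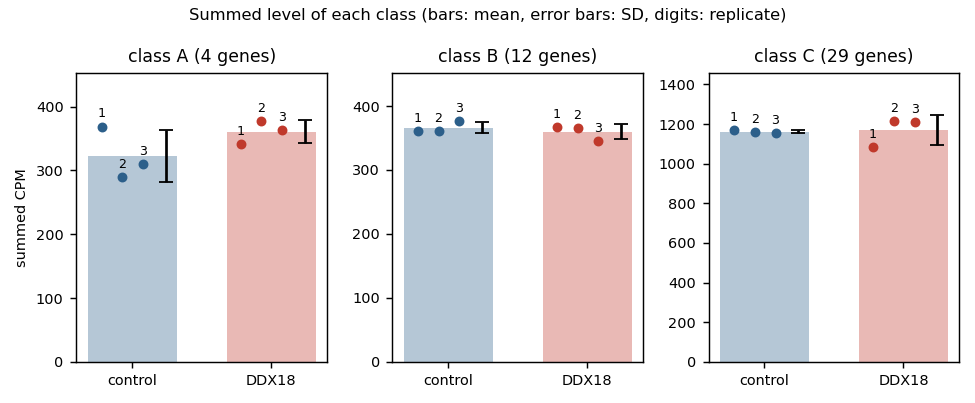
Summed CPM of the DNAJ genes of each class in the 3 control and 3 DDX18 libraries, with dots for libraries (digits give the replicate), bars for the mean and error bars for the SD. The class A mean was 323.1 in control and 360.6 in DDX18 cells, with control replicate 1 at 369.0, and in CPM the groups overlap in all 3 classes.

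Levels of different genes were compared as CPM per kilobase of merged exons in GENCODE 29. On that scale class C held 61.9% to 63.5% of the DNAJ total in each library, class A 17.8% to 20.3% and class B 17.0% to 18.7%. The most abundant member was DNAJC8, a protein of the spliceosome, at 54.1 CPM per kb, above DNAJC5 in 6 of 6 libraries. DNAJC5, the cysteine string protein of vesicles, followed at 41.8 CPM per kb, DNAJA1 at 38.2 and DNAJB1 at 34.3. DNAJC5 and DNAJA1, and DNAJA1 and DNAJB1, kept their order in 5 of 6 libraries. With DNAJC11 at 24.1 CPM per kb, the first 5 genes held 48.7% of the total.

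The next genes in the order, DNAJC9, DNAJC14, DNAJA3 and DNAJA2, lay close together at 18.9, 17.3, 17.3 and 16.8 CPM per kb. DNAJC14 exceeded DNAJA3 in 3 of 6 libraries only. The order depends on the length used. With the length that the deposited FPKM values imply, DNAJC5 ranked first, DNAJA1 came next and then DNAJC8, and class B held 13.1% of the total.

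**Figure D3:**
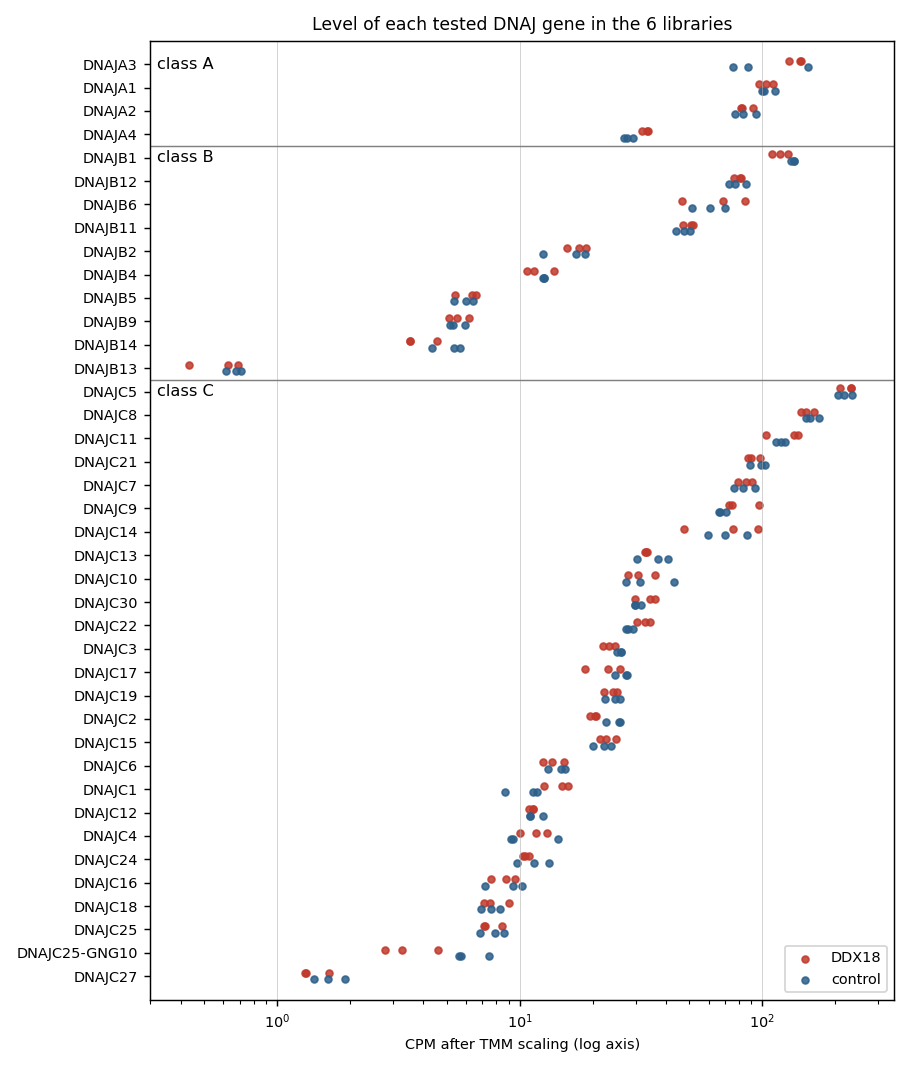
CPM of each of the 40 tested DNAJ genes in the 3 DDX18 (red) and 3 control (blue) libraries on a log axis, ordered by mean level within classes. Levels run from 0.434 CPM (DNAJB13, DDX18 replicate 1) to 233.0 CPM (DNAJC5, control replicate 1), and red and blue dots overlap in 32 of the 40 rows.

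In 2 of the 11 tested cytosolic members the groups did not overlap (18.2%, against 11.5% of all genes tested). DNAJA1 and DNAJA2, which pass clients to HSP70, were expressed at similar levels in both groups. DNAJA1, a farnesylated partner of HSC70, had 97.1, 111.0 and 103.3 CPM in the DDX18 libraries and 101.9, 99.4 and 113.1 CPM in the controls. DNAJA2, a class A co-chaperone active in protein refolding, had 81.5, 91.1 and 82.3 CPM in the DDX18 libraries and 83.5, 77.3 and 93.9 CPM in the controls. For both genes the groups overlapped fully, with log2 fold changes of -0.01 and 0.00 and 95% intervals of -0.21 to 0.18 and -0.22 to 0.22.

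DNAJA4 (chr15:78264086-78282196 on GRCh38, plus strand), a less abundant cytosolic class A member, had 33.7, 31.9 and 33.3 CPM in the DDX18 libraries and 29.3, 26.8 and 27.6 CPM in the controls. Every DDX18 library lay above every control library. Its log2 fold change was 0.24 (SE 0.0843), or 1.18-fold with a 95% interval of 1.03 to 1.35, and it did not pass the edgeR threshold (adjusted p = 0.841).

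DNAJB1 (chr19:14514770-14529770, minus strand), the heat-inducible HSP40, had 109.3, 117.6 and 127.2 CPM in the DDX18 libraries and 135.1, 134.4 and 131.4 CPM in the controls. Every DDX18 library lay below every control library. This gave a log2 fold change of -0.18 (SE 0.0752; edgeR adjusted p = 0.860), with a 95% interval of the fold of 0.783 to 0.997. DNAJB1 shares 211 exonic bases with TECR on the opposite strand, which held 1739 mean counts against 2015 for DNAJB1 and had a log2 fold change of -0.05. The sources used here do not give the strand setting of the counting, so reads of such a pair may not be separable.

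The other cytosolic members had overlapping groups. DNAJB4 and DNAJB5, close relatives of DNAJB1, averaged 12.0 ± 1.64 and 6.11 ± 0.623 CPM in the DDX18 libraries and 12.6 ± 0.101 and 5.91 ± 0.520 CPM in the controls. DNAJB2, a ubiquitin-binding member that directs clients to the proteasome, averaged 17.3 ± 1.52 and 16 ± 3.12 CPM. DNAJC7, whose tetratricopeptide repeats bind both HSP70 and HSP90, averaged 85.1 ± 5.40 and 84.5 ± 8.48 CPM in the DDX18 and control libraries. DNAJC12, a co-chaperone of the aromatic amino acid hydroxylases, had log2 fold change -0.04, and DNAJC24, which acts in diphthamide synthesis, had -0.11.

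DNAJB6, a suppressor of protein aggregation, was among the most variable members. It had 84.6, 69.0 and 46.6 CPM in the DDX18 libraries and 51.1, 61.0 and 69.8 CPM in the controls. The highest and the lowest of the 6 values were both DDX18 libraries, and the fold change of 1.1 had a 95% interval of 0.781 to 1.55.

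Genes of the heat shock response carry binding sites of HSF1 built from inverted GAA units, so the promoters of the family were searched on both strands for GAANNTTC and TTCNNGAA. RefSeq promoters on GRCh38.p14 (250 bases before to 50 after the start) were at hand for 41 of the 45 genes. GAANNTTC occurred in 6 of them (DNAJA1, DNAJA4, DNAJB1, DNAJB6, DNAJB7 and DNAJC6), against 6.77% of all 35116 promoters, and TTCNNGAA in 4 (DNAJA1, DNAJB4, DNAJB6 and DNAJC15), against 7.74%. A run of 3 units (GAANNTTC followed at once by NNGAA, or TTCNNGAA followed by NNTTC), which contains both of the shorter motifs, occurred in DNAJA1 and DNAJB6 and in 0.490% of all promoters. The 250 bases upstream of the RefSeq start are shown for DNAJB1 and DNAJA4, whose groups did not overlap and whose estimates had opposite signs, each with GAANNTTC at 2 places, and for DNAJB6 with its run of 3 units. In DNAJB1 and DNAJA4 that start, and the bases shown, lie inside the bounds of the gene given above, not before its outermost end. Capitals mark the motif matches, and a match describes letters only, not a bound site.
DNAJB1 promoter, chr19:14518398-14518647, minus strand: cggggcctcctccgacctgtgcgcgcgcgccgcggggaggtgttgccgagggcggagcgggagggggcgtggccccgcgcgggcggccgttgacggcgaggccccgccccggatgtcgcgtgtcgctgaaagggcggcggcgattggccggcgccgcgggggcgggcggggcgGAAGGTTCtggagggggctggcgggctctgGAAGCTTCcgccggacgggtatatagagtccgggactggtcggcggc
DNAJA4 promoter, chr15:78264312-78264561, plus strand: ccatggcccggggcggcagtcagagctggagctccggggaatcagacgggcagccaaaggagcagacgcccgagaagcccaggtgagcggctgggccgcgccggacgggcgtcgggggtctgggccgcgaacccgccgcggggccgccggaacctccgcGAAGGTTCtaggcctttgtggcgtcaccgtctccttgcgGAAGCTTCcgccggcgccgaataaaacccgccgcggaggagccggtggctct
DNAJB6 promoter, chr7:157336754-157337003, plus strand: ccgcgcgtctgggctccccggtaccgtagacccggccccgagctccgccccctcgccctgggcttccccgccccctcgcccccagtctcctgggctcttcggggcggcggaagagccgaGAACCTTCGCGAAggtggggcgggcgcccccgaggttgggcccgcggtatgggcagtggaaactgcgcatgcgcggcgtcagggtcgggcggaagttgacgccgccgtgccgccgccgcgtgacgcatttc

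The matches began 77 and 47 bases upstream of the RefSeq start in DNAJB1 and 91 and 52 bases upstream in DNAJA4. The run in DNAJB6 began 131 bases upstream. Genes of the unfolded protein response carry an element of CCAAT, 9 bases of any kind and CCACG, which, searched on both strands, occurred in 0 of the 41 DNAJ promoters and in 0.0769% of all. TGACGTGG, another element of that response, occurred in DNAJC10 and in 0.729% of all promoters.

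Mitochondrial members summed to 315.6, 364.1 and 355.7 CPM in the DDX18 libraries and to 345.3, 288.8 and 268.3 CPM in the controls, and the groups overlapped. DNAJA3 (chr16:4425805-4456775, plus strand), the matrix co-chaperone of the mitochondrial HSP70, had the largest estimate of class A. Its levels were 129.0, 143.1 and 144.5 CPM in the DDX18 libraries and 154.3, 86.8 and 75.6 CPM in the controls. Control replicate 1 was the highest of all 6 libraries, and controls 2 and 3 lay apart below the other 4, with a gap of 0.57 on the log2 scale.

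The log2 fold change of DNAJA3 was 0.40 (SE 0.243; edgeR adjusted p = 0.875), with a 95% interval of -0.17 to 0.96. Leaving out control replicate 1 gave 0.77 (adjusted p = 0.110), and leaving out control replicate 3 gave 0.20 (adjusted p = 0.933). Such a gap of at least 0.5, with 2 or more libraries on each side, was seen in 1 of the 24 DNAJ genes with at least 20 CPM and in 3.1% of the 7358 genes of that level.

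The other mitochondrial members had overlapping groups. DNAJC11, a partner of the cristae-forming contact-site complex, had 103.6, 139.6 and 134.7 CPM in the DDX18 libraries and 118.8, 123.6 and 113.4 CPM in the controls. The lowest and the highest 2 values were all DDX18 libraries. DNAJC19, a subunit of the motor that pulls proteins into the matrix, averaged 24 ± 1.49 CPM in the DDX18 libraries and 24.2 ± 1.74 CPM in the controls. DNAJC15, its relative, had log2 fold change 0.06, and DNAJC30, an inner-membrane protein, had 0.13.

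Of the 10 members of the endoplasmic reticulum, 2 had groups that did not overlap, against 11.5% of all genes tested. Whether the share among these members differs from that background was not tested. DNAJC1 (chr10:21756537-22003769, minus strand), a membrane protein whose J domain faces the lumen and binds the HSP70 BiP, had 14.9, 15.8 and 12.6 CPM in the DDX18 libraries and 11.8, 8.72 and 11.3 CPM in the controls. Every DDX18 library lay above every control library. The estimate of 0.44 on the log2 scale (SE 0.155), 1.36-fold with a 95% interval of 1.06 to 1.75, did not pass the edgeR threshold (adjusted p = 0.841).

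DNAJC3, a lumenal BiP co-chaperone known as p58IPK, had 23.3, 24.7 and 22.1 CPM in the DDX18 libraries and 25.1, 26.2 and 26.2 CPM in the controls. All 3 DDX18 libraries were lower, with a log2 fold change of -0.14 (SE 0.0896; edgeR adjusted p = 0.877). DNAJB14, which anchors in the membrane with its J domain in the cytosol, averaged 3.87 ± 0.594 CPM in the DDX18 libraries and 5.13 ± 0.684 CPM in the controls, a log2 fold change of -0.41 whose 95% interval ran from -0.84 to 0.03. Its groups overlapped.

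DNAJB12, the more abundant relative of DNAJB14, had 80.5, 81.5 and 76.3 CPM in the DDX18 libraries and 77.1, 72.8 and 85.5 CPM in the controls. Both the lowest and the highest value were controls. The BiP co-chaperones DNAJB9 and DNAJB11 had log2 fold changes of 0.03 and 0.07, DNAJC10, a lumenal disulfide reductase, had -0.11, DNAJC16 had -0.04, and DNAJC18, a membrane relative of DNAJB12, had 0.05. BiP itself, encoded by HSPA5, averaged 741.5 ± 24.7 CPM in the DDX18 libraries and 802.7 ± 29.4 CPM in the controls, with no overlap, and did not pass the edgeR threshold (adjusted p = 0.860).

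DNAJC14 (chr12:55820960-55830824, minus strand), a membrane protein of the endoplasmic reticulum involved in receptor export, varied most among the abundant members beside DNAJA3. It had 47.4, 75.3 and 96.3 CPM in the DDX18 libraries and 86.3, 70.3 and 59.7 CPM in the controls. Its lowest values were DDX18 replicate 1 and control replicate 3. AC023055.1, a protein-coding row on the same strand that shares 973 exonic bases with DNAJC14, held 273, 5 and 3 counts in the DDX18 libraries and 3, 3 and 186 counts in the controls.

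The libraries with the fewest DNAJC14 reads were thus the 2 in which AC023055.1 had more than a few counts. Added together, the rows had 64.3, 75.6 and 96.5 CPM in the DDX18 libraries and 86.5, 70.4 and 71.2 CPM in the controls, so that the ratio of the highest to the lowest library was 1.5 in place of 2.03 for DNAJC14 alone. This sum was chosen after the values were seen, and how reads were divided between both rows was not tested. The 95% interval of the DNAJC14 fold change was 0.679 to 1.51.

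**Figure D4:**
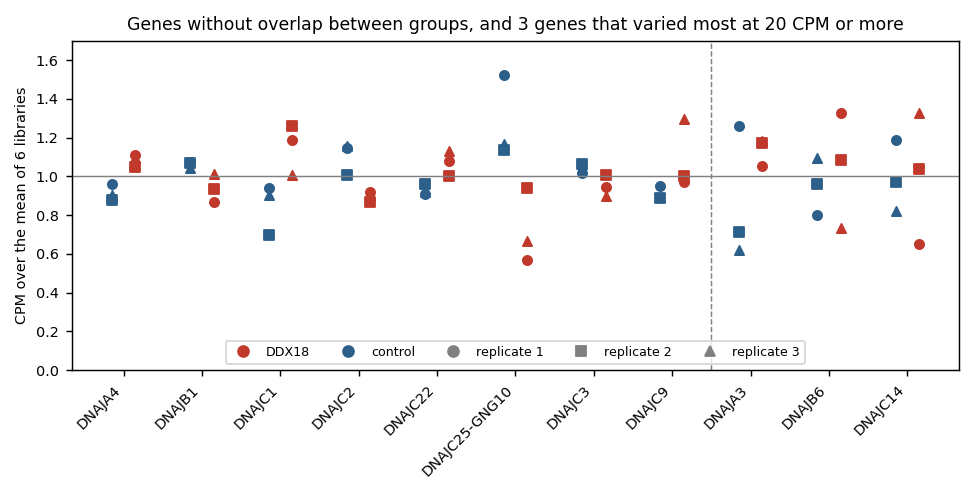
CPM of each library divided by the gene's mean over the 6 libraries, for the 8 DNAJ genes whose groups did not overlap and, right of the dashed line, for DNAJA3, DNAJB6 and DNAJC14, the members of at least 20 CPM with the highest ratios of the highest to the lowest library. Colours give the group and symbols the replicate, and the highest DNAJA3 value is control replicate 1 (154.3 CPM) while the lowest DNAJC14 value is DDX18 replicate 1 (47.4 CPM).

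Members that act on vesicles and endosomes had overlapping groups. DNAJC5, which keeps SNARE proteins functional, had 207.9, 231.8 and 232.2 CPM in the DDX18 libraries and 233.0, 216.5 and 204.3 CPM in the controls. DNAJC13, the endosomal protein RME-8, had 33.2, 33.6 and 32.9 CPM in the DDX18 libraries and 30.5, 37.0 and 40.8 CPM in the controls. In DNAJC13 the DDX18 libraries all lay inside the range of the controls. DNAJC6, the clathrin-uncoating factor auxilin, had a log2 fold change of -0.07, and DNAJC27, a RAB-like GTPase fused to a J domain, had -0.22 at 1.42 ± 0.189 and 1.64 ± 0.245 CPM in DDX18 and control libraries.

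Among nuclear members, DNAJC8 had 151.4, 162.7 and 143.9 CPM in the DDX18 libraries and 157.8, 150.8 and 170.4 CPM in the controls, with overlap. DNAJC9, a co-chaperone of histones H3 and H4, had 72.9, 75 and 97.1 CPM in the DDX18 libraries and 71.1, 66.4 and 67.0 CPM in the controls. All 3 DDX18 libraries of DNAJC9 were higher, but replicate 1 by little and replicate 3 by most. Its log2 fold change was 0.26 (SE 0.119; edgeR adjusted p = 0.860). DNAJC9 overlaps FAM149B1 on the opposite strand over 949 exonic bases, and FAM149B1 had a log2 fold change of -0.14. DNAJC17, a splicing-associated member, averaged 22.5 ± 3.74 CPM in the DDX18 libraries and 26.6 ± 1.66 CPM in the controls, with overlap.

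Both members tied to the ribosome had estimates below 0. DNAJC2 (chr7:103312474-103344873, minus strand), which joins HSPA14 in the complex that meets nascent chains at the ribosome, had 20.6, 19.5 and 20.4 CPM in the DDX18 libraries and 25.7, 22.7 and 26 CPM in the controls. Every DDX18 library lay below every control library. The estimate of -0.30 on the log2 scale (SE 0.0974), a fold of 0.813 with a 95% interval of 0.695 to 0.951, did not pass the edgeR threshold (adjusted p = 0.838). DNAJC2 shares 628 exonic bases with PMPCB on the opposite strand, a gene with 871.2 mean counts against 359.8 for DNAJC2 and a log2 fold change of -0.09.

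DNAJC21, a factor of large ribosomal subunit assembly, had 87.6, 98.0 and 90.0 CPM in the DDX18 libraries and 88.9, 98.3 and 102.5 CPM in the controls. The groups overlapped and the log2 fold change was -0.07, with a 95% interval of -0.27 to 0.12. HSPA14, the partner of DNAJC2, has 2 rows in the table, which together had 37.8 ± 3.56 CPM in the DDX18 libraries and 37.1 ± 2.56 CPM in the controls.

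The readthrough DNAJC25-GNG10 (chr9:111631386-111670229, plus strand) had the most negative estimate of the family. It had 2.79, 4.62 and 3.27 CPM in the DDX18 libraries and 7.48, 5.59 and 5.73 CPM in the controls, from 45 to 116 counts per library. Every DDX18 library lay below every control library. The log2 fold change was -0.81 (SE 0.231; unadjusted p = 0.0083; edgeR adjusted p = 0.800), a fold of 0.569 with a 95% interval of 0.392 to 0.825.

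Reads of this transcript can be told from those of its neighbours only where they cross a junction that joins both genes. Of its 1448 merged exonic bases, 358 lie in exons of DNAJC25, 1090 in exons of GNG10 and 0 in neither. The junctions between exons 1 and 2 of the 3 transcripts on chr9, plus strand, are shown from GENCODE 29 (GRCh38), with the last 20 bases of exon 1 in lower case and the first 20 of exon 2 in capitals. The readthrough pairs the left side of DNAJC25 with the right side of GNG10.
DNAJC25-201, chr9:111631743 to chr9:111647107: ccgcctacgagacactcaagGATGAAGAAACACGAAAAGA
DNAJC25-GNG10-201, chr9:111631743 to chr9:111666815: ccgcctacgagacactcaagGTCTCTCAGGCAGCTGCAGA
GNG10-201, chr9:111661715 to chr9:111666815: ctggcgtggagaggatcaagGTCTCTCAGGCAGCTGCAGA

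Both parent genes had estimates near 0 (-0.04 for DNAJC25 and -0.06 for GNG10). DNAJC25 averaged 7.57 ± 0.749 CPM in the DDX18 libraries and 7.79 ± 0.890 CPM in the controls, and GNG10 averaged 32.3 ± 2.19 and 33.7 ± 4.0 CPM. The readthrough held 7.48%, 12.5% and 9.77% of the counts on itself and GNG10 in the DDX18 libraries and 20.4%, 13.6% and 13.6% in the controls. The 3 rows together had 43.4 ± 2.67 and 47.8 ± 2.83 CPM. The sources used here do not say how the authors assigned reads in shared exons, and the part of that assignment in the difference was not tested.

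DNAJC22 and DNAJC4 have less settled roles in human cells. DNAJC22 had 32.7, 30.4 and 34.4 CPM in the DDX18 libraries and 27.5, 29.2 and 27.8 CPM in the controls. The groups did not overlap, with a log2 fold change of 0.21 (SE 0.0880; edgeR adjusted p = 0.860). DNAJC4 had 9.98, 13.0 and 11.7 CPM in the DDX18 libraries and 14.3, 9.21 and 9.36 CPM in the controls, with the highest value in control replicate 1.

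Genes of testis and cilia were at or near 0. DNAJB13, a radial-spoke protein of flagella, was the only one of 5 that passed the filter, with 0.434 to 0.709 CPM (7 to 11 counts per library). DNAJB7 had 3, 0 and 4 counts in the DDX18 libraries and 1, 3 and 5 in the controls, too few to be tested. DNAJB8 and DNAJC5B each had 2 counts in 1 library, and DNAJC5G had 0 in all 6. DNAJC28, the remaining untested gene, had 7, 3 and 3 counts in the DDX18 libraries and 3, 15 and 12 in the controls.

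Of the 40 tested members, 22 share exonic bases with another gene, 16 of them with one on the opposite strand, and for 15 the other gene held at least 0.1 of the member's counts. Among the 18 pseudogene rows named as a member followed by P and a number, which leave out DNAJB3, only 4 had a count. DNAJC19P9, 98.9% identical to DNAJC19 over its length, held 92.0 mean counts against 386.2 for DNAJC19. The level of DNAJC19 is therefore uncertain by the reads that the counting may have split between both.

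The partners of the family were also without a called gene. Of the HSP70 list (13 rows for 12 genes) 12 rows were tested, 5 with estimates above and 7 below 0 (median log2 fold change -0.05), and 0 passed the threshold. HSPA8, the constitutive HSC70, averaged 1204 ± 74.1 CPM in the DDX18 libraries and 1277 ± 261.3 CPM in the controls, and HSPA1A, the stress-inducible HSP70, averaged 564.6 ± 33.9 and 548.1 ± 39.6 CPM. Summed per length, HSP70 genes stood at 2.01 ± 0.0840 times the DNAJ total in the DDX18 libraries and 2.08 ± 0.134 times in the controls, a difference within the replicate spread.

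Of 14 nucleotide exchange factors 4 lay above and 10 below 0 (median -0.03), of 14 genes of HSP90 and its partners 5 above and 9 below (median -0.02), and of 11 tested small and mitochondrial chaperones 5 above and 6 below (median -0.01). None passed. The smallest p-values in the HSP90 list belonged to HSP90B1, the HSP90 of the endoplasmic reticulum, and ST13, the HSP70-binding protein HIP. HSP90B1 averaged 230.3 ± 14.7 CPM in the DDX18 libraries and 273.2 ± 23.7 CPM in the controls (log2 fold change -0.25; edgeR adjusted p = 0.841). ST13 averaged 226.5 ± 5.68 and 203.6 ± 3.33 CPM (0.15; adjusted p = 0.849), and the groups of both genes did not overlap. In the HSP90 list 3 of 14 genes had groups that did not overlap (21.4%, against 11.5% of all genes tested). The third was HSP90AB1, the most abundant gene of the list, with 2813 ± 28.9 CPM in the DDX18 libraries and 2997 ± 50.1 CPM in the controls.

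The heat shock factor genes HSF1, HSF2 and HSF4 had log2 fold changes of -0.11, 0.22 and -0.10 and 0 passed.

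**Figure D5:**
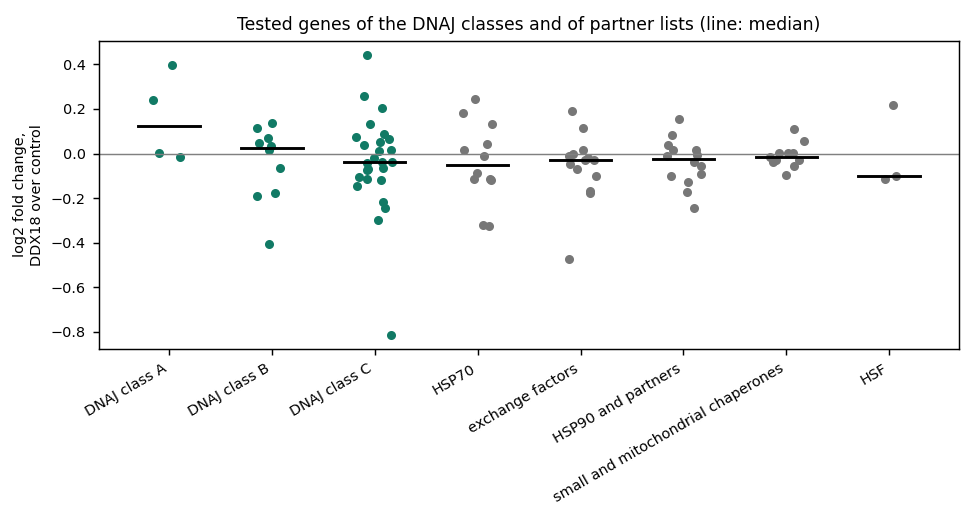
The log2 fold change, DDX18 over control, of each tested gene of the 3 DNAJ classes (green) and of 5 lists of partner genes (grey), with a line at the median of each column. Medians lie between -0.10 (the 3 heat shock factor genes) and 0.12 (class A), and the lowest point is DNAJC25-GNG10 at -0.81.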

How the data were processed

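Per the labels' protocols, total RNA was made into libraries with a SMARTER mRNA-seq kit. The authors deposited 1 table with raw read counts per gene and FPKM values for each of 6 libraries, both named in the file headers. The FPKM are the authors' own normalization and were used for 2 alternatives and for the implied gene length. The sources used here do not give the aligner, counter, strand setting or annotation. GRCm38 and mm10, both mouse builds, are named in the submitters' processing notes, whereas the table holds human Ensembl genes, and 44 of the 45 DNAJ rows have the same start and end as in GENCODE 29 (GRCh38).

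The deposited counts went through edgeR 4.0.16 (R 4.3.3). filterByExpr left 15144 genes, TMM scaled the libraries, and a quasi-likelihood F-test compared 3 DDX18 with 3 control libraries without covariates, with Benjamini-Hochberg adjustment. Adjusted p-values are from this test on all 6 libraries unless a left-out library, the replicate block or another tool is named. Standard errors were taken as the absolute log2 fold change over the square root of F, and the 95% interval uses the t distribution with the test's degrees of freedom. The common biological coefficient of variation that edgeR estimated was 15.9%. Sums over members are given without a p.

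The rule for the members uses no measured value, but the family, its role groups and the partner lists were chosen with earlier results of these data known. Values in every library are given for class A, the 2 most abundant genes of each role group, genes of at least 5 CPM whose groups do not overlap and the 5 genes with the smallest p. Of each partner list up to 4 genes with the smallest p or highest level could be named. AC023055.1, GNG10, TECR, PMPCB and FAM149B1 were named for shared exons after their values were seen, as were DNAJB6 and DNAJB14. A list of J-domain genes outside the DNAJ classes is not reported here.

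The fit was tested on simulated data, with 200 changed genes among 15144 per run and 2 runs. Among changed genes, all with over 50 expected counts, 32.5% were found at 1.5-fold, 78.0% at 2-fold and 99.0% at 3-fold. Of the calls 11.0% were false, a share above the threshold of 0.05. The real comparison called 8 genes, and the adjustment is stricter where fewer genes change, so these rates may be too high for it. Alternatives were size factors as in DESeq2, totals only, no filter, at least 5 CPM in 3 libraries, DESeq2 1.42.0, the replicate number as a block, limma 3.58.1 on log2 FPKM with a pseudocount of 1 or 0.1, and leaving out each library.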

Additional observations from a re-analysis of the deposited data

How the results depend on the processing

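No DNAJ gene was called under any of the 14 alternatives. The number of genes called over the whole table was 8, but 4 without the filter, 39 with DESeq2, 1 with the replicate number as a block and 3 to 14 when single libraries were left out. The log2 fold change of DDX18 stayed between 0.99 and 1.12, yet its adjusted p rose to 0.153 with the replicate block (1.06), to 0.0544 without DDX18 replicate 2 (1.02) and to 0.0643 without control replicate 2 (1.00). Libraries of the same number did not deviate together (correlations -0.06, 0.03 and -0.10), so the numbers were not taken to pair samples. DNAJC14 turned sign with the replicate block (-0.021) and with limma on log2(FPKM + 1) (-0.0085) and log2(FPKM + 0.1) (-0.012).

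Leaving out single libraries turned the sign of estimates near 0. The lowest and highest values were -0.064 and 0.040 for DNAJA1, -0.063 and 0.075 for DNAJA2, -0.033 and 0.080 for DNAJB12, -0.23 and 0.25 for DNAJC14, -0.034 and 0.31 for DNAJC4 and -0.0091 and 0.090 for DNAJC5. The number of DNAJ genes whose groups do not overlap was 8, 7 with totals only (17.5%, against 11.8% of all genes), and 9 to 13 without single libraries (22.5% to 31.7%, against 19.6% to 25.3% of all genes), where fewer libraries must separate, with 13 without control replicate 1. It was 7 without the readthrough, a setting chosen after the data were seen, as were the sums per kb. The class C sum without the readthrough had a log2 ratio of 0.01. Where no reason is given the cause was not tested. Over all alternatives, 261 of 279 estimates of single DNAJ genes, 37 of 42 class medians and 35 of 38 class sums kept their sign. The class B median turned to -0.02 without the filter and lay between -0.03 and 0.05 over all alternatives. The class B sum turned to 0.0016 without DDX18 replicate 3, and the class C sum to -0.019 without DDX18 replicate 2 and to -0.017 without DDX18 replicate 3. At this depth 5 DNAJ genes had too few counts to be tested, and 1.5-fold changes were mostly missed in the simulated data.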
